A study of Homo sapiens with 12 samples.

Results

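Aminoacyl-tRNA synthetases are the enzymes that load each tRNA with its amino acid before translation. The human genes for them make up 2 sets. The cytosolic enzymes charge tRNAs for the ribosomes of the cytoplasm, and their names mostly end in 1. The mitochondrial enzymes charge the tRNAs encoded by mitochondrial DNA, and their names end in 2. Most amino acids have a separate gene for each compartment, whereas KARS1 and GARS1 supply both. Several cytosolic synthetases sit together in the multisynthetase complex, which the scaffold proteins AIMP1, AIMP2 and EEF1E1 hold in place. Uncharged tRNA activates the kinase GCN2 (EIF2AK4), phosphorylation of eIF2alpha follows, and translation of the transcription factor ATF4 goes up. ATF4 in turn is known to raise transcription of amino acid transporters, of enzymes of amino acid synthesis and of many cytosolic synthetase genes.

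The members described here are 36 synthetase genes out of 58037 identifiers in the counts, of which 20 encode cytosolic and 16 mitochondrial enzymes. They were chosen by symbol from their known function, with earlier results of these data known. RNA was sequenced from 2 prostate cancer lines, DU-145 and LNCaP-AI, each stably carrying a tet-inducible shRNA against MUC1, a transmembrane mucin. DU-145 is an androgen-independent line, and LNCaP-AI was derived from the C4-2B subline of LNCaP by long culture without androgen. Per the sample labels, both lines were kept in phenol red-free RPMI1640 with charcoal-stripped serum. The study's methods name that medium for LNCaP-AI cells but RPMI1640 with heat-inactivated serum for DU-145 cells, so a difference in medium between the lines cannot be told apart from a difference between the lines themselves. In each line 3 cultures received vehicle and 3 received 500 ng/ml doxycycline (DOX) for 7 days. The sample labels call these groups control shRNA and MUC1 shRNA, whereas the design text describes vehicle and DOX in cells with the MUC1 shRNA, and the latter names are used here. A single shRNA was used, and cells with a control shRNA given DOX were not analysed here. An effect of DOX itself and an effect of the shRNA therefore cannot be told apart.

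Total counts were 10423437 to 13544153 per sample in DU-145 cells and 16569613 to 26961777 in LNCaP-AI cells. MUC1 had 74, 60 and 59 counts in the DU-145 vehicle samples and 3 in each DOX sample, and 36, 25 and 52 against 8, 6 and 3 in LNCaP-AI cells. DU-145 samples had 0 counts for 6 of 10 luminal prostate markers. Their summed level was 2229.7 to 2925 CPM over the 7 of 8 basal or mesenchymal markers that passed the count filter. The basal keratin KRT5 did not pass it, with 6 counts in DOX 2 and 0 in the other DU-145 samples. CPM are counts relative to the size of the library on edgeR's cpm scale, TMM-normalized within a line. LNCaP-AI samples expressed all 10 luminal markers, with a sum of 2809 to 6097 CPM. The main axis of variation among LNCaP-AI samples, with 82.5% of the variance in a principal component analysis, was not the treatment. It set vehicle 1 with DOX 2 and 3, apart from vehicle 2 and 3 with DOX 1. The summed basal markers were 57.8 to 87.7 CPM on the side of vehicle 1 and 571 to 644 CPM on the other side. No label gives a batch for this division, so the LNCaP-AI results below also carry the log2 fold change within each side, without a test. In bulk RNA, fewer cells of a kind and less RNA per cell cannot be told apart.

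A group of the cytosolic genes shared a short sequence near the transcription start, and 5 of these stretches are shown. All 5 are from genes described below with values by sample. IARS1 also holds the sequence and is described in that way, but its stretch is not shown. The motif TGATGNAA is the core of the CCAAT-enhancer binding protein-ATF response element, through which ATF4 acts. It was searched on both strands of the RefSeq promoter windows of GRCh38.p14, each 300 bases long with 250 before and 50 after the start. The other motif searched in the same way was the E-box CACGTG, and no match of the one overlapped a match of the other in a synthetase window. The capitals below mark the match, and each line is the gene's own strand, 5′ to 3′. AARS1 (alanyl-tRNA synthetase) is read from chr16:70289660-70289719, minus strand. CARS1 (cysteinyl) is from chr11:3057392-3057451, minus strand. MARS1 (methionyl) is from chr12:57488038-57488097, plus strand. GARS1 (glycyl) is from chr7:30594819-30594878, plus strand. TARS1 (threonyl) is from chr5:33440941-33441000, plus strand.
AARS1: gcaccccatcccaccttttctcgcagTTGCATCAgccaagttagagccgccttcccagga
CARS1: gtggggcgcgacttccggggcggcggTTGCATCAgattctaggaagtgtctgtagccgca
MARS1: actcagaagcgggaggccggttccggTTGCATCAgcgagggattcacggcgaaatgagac
GARS1: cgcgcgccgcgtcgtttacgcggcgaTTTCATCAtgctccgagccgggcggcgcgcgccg
TARS1: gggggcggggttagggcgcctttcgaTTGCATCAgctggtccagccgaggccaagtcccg
In all 5 stretches the match is the reverse complement of the motif as spelled. It began at base -187 relative to the start in AARS1, at -2 in CARS1, at -4 in MARS1, at -33 in GARS1 and at 3 in TARS1, where the start is base 1. In GENCODE release 44 the TARS1 match lies within the first exon of the representative (MANE Select) transcript. Those of AARS1 and GARS1 lie upstream of that transcript's start and those of CARS1 and MARS1 span it, and all 4 lie within an exon of another annotated transcript of the same gene.

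Windows were found for 30 of the 36 synthetase genes. TGATGNAA was present in 7 of 16 cytosolic genes (43.8%) and in 1 of 14 mitochondrial genes (7.14%), the tyrosyl gene YARS2, against 4.46% of all 27305 genes with a window. Besides the 5 printed, the cytosolic holders were IARS1 and NARS1, the isoleucyl and asparaginyl enzymes. Of 26 other known ATF4 targets with a window, 8 held the motif (30.8%). The E-box was present in 1 of 16 cytosolic genes (IARS1, 6.25%) and in 3 of 14 mitochondrial genes (CARS2, EARS2 and MARS2, 21.4%), against 8.77% of all genes. A match is a description of the sequence and not of binding.

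In DU-145 cells most cytosolic synthetases rose with DOX, by up to 1.58-fold, while WARS1, the tryptophanyl enzyme, fell 2.54-fold. The mitochondrial genes moved in both directions. Of the 35 synthetases tested, 19 were higher and 5 lower at an adjusted p under 0.05 (edgeR's quasi-likelihood test, Benjamini-Hochberg adjustment over 13644 genes), where 51.5% of all genes tested were called, 26.3% higher and 25.3% lower. Among the 20 cytosolic genes 14 were higher, 1 was lower and 5 did not pass, with a median log2 fold change of 0.28. Among 15 mitochondrial genes 5 were higher, 4 lower and 6 did not pass, with a median of 0.07. The median over all genes was 0.00. SARS2, the mitochondrial seryl enzyme, had 0 counts in all 12 samples and was not tested. Its exons share 1492 bases with a readthrough gene annotated on the same strand, which was also at 0, and the part of the counting in this was not tested.

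**Figure D1:**
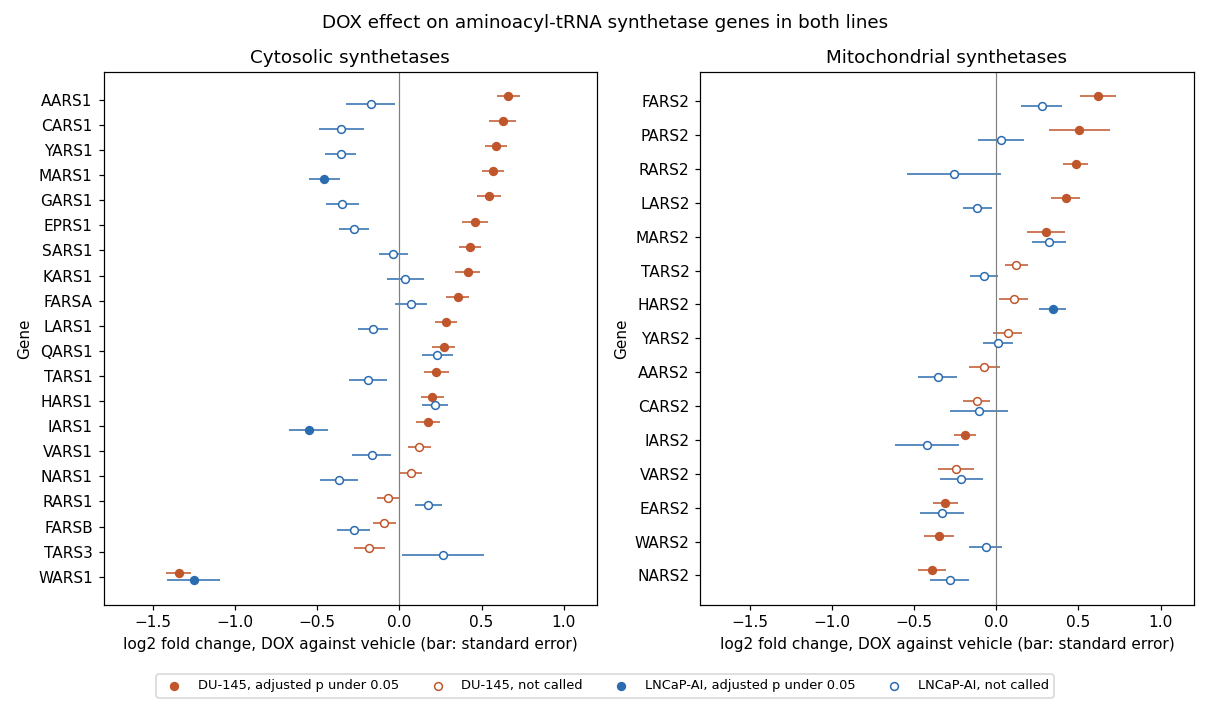
Log2 fold change with DOX against vehicle (x axis, with its standard error) for each tested synthetase gene (y axis), in DU-145 and LNCaP-AI cells (3 against 3 samples each), with filled points for an adjusted p under 0.05. In DU-145 cells 14 of 20 cytosolic genes were called higher, and in LNCaP-AI cells 14 of 20 cytosolic estimates lay below 0, 3 of them called.

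AARS1 (chromosome 16, 70251983 to 70289707 in GRCh38) had the largest rise. It measured 309, 318 and 299 CPM in the vehicle samples and 515, 483 and 468 CPM in the DOX samples of DU-145 cells, which is 0.66 ± 0.07 as log2 fold change and standard error (edgeR adjusted p = 2.1e-07). The lowest DOX sample was well above the highest vehicle sample. CARS1 (chromosome 11, 3000922 to 3057613) went from 30.9, 33.6 and 34.5 CPM to 55.6, 49.6 and 47.9 CPM, a log2 fold change of 0.63 ± 0.08 (adjusted p = 3.91e-06, edgeR). YARS1, the tyrosyl enzyme, went from 201, 203 and 193 CPM to 317, 296 and 287 CPM (log2 fold change 0.59 ± 0.07, edgeR adjusted p = 6.84e-07). MARS1 (chromosome 12, 57475445 to 57517569), a member of the multisynthetase complex, went from 216, 218 and 208 CPM to 328, 309 and 314 CPM (log2 fold change 0.57 ± 0.07, edgeR adjusted p = 7.65e-07). For all 4 genes the groups did not overlap. MARS1 shares 355 exonic bases with DDIT3 on the opposite strand. DDIT3, which encodes the stress factor CHOP, had 2473 counts over the 12 samples and also rose in DU-145 cells (log2 fold change 0.95). YARS1 shares 396 exonic bases with S100PBP, and AARS1 shares 43 with DDX19B, also on the opposite strand. The strand setting of the counting is not given in the sources used here, so reads in these stretches cannot be assigned.

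The rest of the risen cytosolic genes spanned log2 fold changes from 0.18 to 0.54. GARS1 went from 351, 374 and 341 CPM to 555, 504 and 495 CPM (log2 fold change 0.54 ± 0.07, edgeR adjusted p = 4.11e-06). EPRS1, the bifunctional glutamyl-prolyl enzyme, rose by 0.46, SARS1 (seryl) by 0.43, KARS1 (lysyl) by 0.42 and FARSA, the catalytic subunit of the phenylalanyl enzyme, by 0.35. LARS1 (leucyl), a sensor of leucine for mTORC1 as well as a synthetase, rose by 0.28, QARS1 (glutaminyl) by 0.27, TARS1 by 0.22, HARS1 (histidyl) by 0.20 and IARS1 by 0.18. The last call was marginal (adjusted p = 0.0496, edgeR), and with 1 sample left out IARS1 passed in 2 of 6 fits, HARS1 in 3 and TARS1 in 4. The 5 that did not pass were VARS1 (0.12), NARS1 (0.07), RARS1 (-0.07), FARSB (-0.09), the other phenylalanyl subunit, and TARS3 (-0.18), a second threonyl enzyme. Of these, only TARS3 had groups without overlap, at 23.8 to 24.5 CPM with vehicle and 19.9 to 23.4 CPM with DOX. In all, DOX samples lay entirely above vehicle for 14 cytosolic genes and entirely below for 2, and for 6 and 6 mitochondrial genes, where groups did not overlap for 57.4% of all genes tested.

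WARS1 (chromosome 14, 100333790 to 100376805) was the only cytosolic synthetase called lower in DU-145 cells. Its product also has roles outside translation and is induced by interferon. In DU-145 cells WARS1 fell from 107, 105 and 94.3 CPM to 41.8, 40 and 39 CPM, a log2 fold change of -1.34 ± 0.08 (adjusted p = 5.62e-11 by edgeR). The same gene fell in LNCaP-AI cells, from 140.5, 100.3 and 99.7 CPM to 50.7, 48.6 and 43.6 CPM (log2 fold change -1.25 ± 0.16, edgeR adjusted p = 0.0135). In both lines the groups lay far apart, with no DOX sample near a vehicle sample. Within the side of vehicle 1 the LNCaP-AI value was -1.61, and within the side of vehicle 2 and 3 it was -0.98; pairs of values below follow this order. WARS1 was the only synthetase called lower in both lines, and the difference between the lines was 0.13 ± 0.17 (adjusted p = 0.701). Without DOX 2 or DOX 3 the LNCaP-AI adjusted p was 0.0875 or 0.0856. WARS1 shares 287 exonic bases with WDR25 on the opposite strand.

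Among the mitochondrial genes of DU-145 cells, FARS2, which charges phenylalanine, had the largest rise, from 10.7, 11.8 and 11.9 CPM to 19.1, 16.5 and 17.2 CPM (log2 fold change 0.62 ± 0.11, edgeR adjusted p = 0.000125). PARS2 (prolyl), with 3.63 to 3.75 CPM in vehicle and 4.44 to 6.26 CPM in DOX samples, rose by 0.51, RARS2 (arginyl) by 0.48, LARS2 (leucyl) by 0.42 and MARS2 (methionyl) by 0.30. The groups did not overlap for any of these 5 genes. NARS2 (asparaginyl) fell by 0.39, WARS2 (tryptophanyl) by 0.35, EARS2 (glutamyl) by 0.31 and IARS2 (isoleucyl) by 0.19. IARS2 was by far the most abundant of them, with 398 to 406 CPM in vehicle and 341 to 369 CPM in DOX samples. The values of the 6 that did not pass ran from -0.24 for VARS2 to 0.12 for TARS2. With 1 sample left out, IARS2 passed in 4 of 6 fits, MARS2 in 2 and PARS2 in 1. For the 12 amino acids with 1 dedicated gene in each compartment, matched by name (such as AARS1 and AARS2), the cytosolic log2 fold change was the larger in 9, and leucine, arginine and tryptophan were the exceptions. Not counted there are phenylalanine, whose cytosolic enzyme has the subunits FARSA (0.35) and FARSB (-0.09) against FARS2 (0.62), and the amino acids of the bifunctional EPRS1 (0.46), against PARS2 (0.51) for proline and EARS2 (-0.31) for glutamate.

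**Figure D2:**
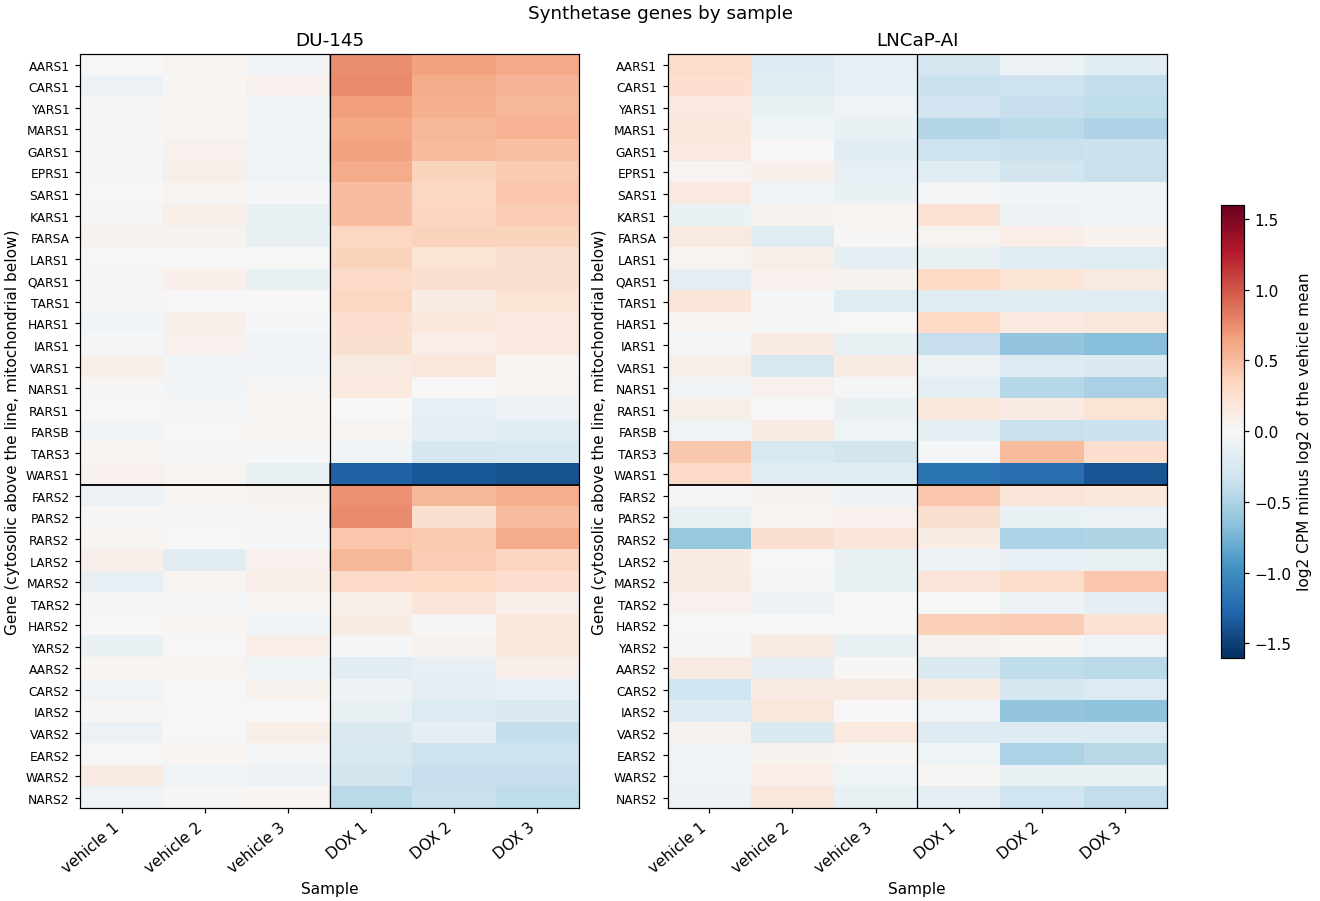
Each row is a synthetase gene and each column a sample, and colour gives the log2 CPM of the sample minus the log2 of that line's vehicle mean (cytosolic genes above the horizontal line). WARS1 is the darkest row in the DOX samples of both lines, and the LNCaP-AI columns vary among replicates, with vehicle 1 unlike vehicle 2 and 3 for genes such as RARS2 (15.5 against 28.2 and 26.9 CPM).

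In LNCaP-AI cells few synthetases passed the test, and those of the cytosolic set that did were lower. On simulated counts, with 199 randomly drawn genes changed by a log2 fold change of 1, the fit of this line recovered 11.1% of them. In the real counts 2043 genes were called, so the adjustment for multiple tests was less strict there. The simulated share therefore does not measure the power for the synthetases. A gene that did not pass may still have changed. Of the 35 tested, 4 were called, 3 lower and 1 higher, against 12.7% of 16030 genes in all (7.22% higher and 5.52% lower, edgeR). The lower genes were WARS1, IARS1 and MARS1, and the higher one was HARS2, the mitochondrial histidyl enzyme. The median log2 fold change was -0.18 over the 20 cytosolic genes and -0.10 over 15 mitochondrial genes, beside -0.05 over all genes. DOX samples lay entirely below vehicle for 9 cytosolic genes and entirely above for 3 (HARS1, QARS1 and RARS1), and below and above for 3 mitochondrial genes each, where groups did not overlap for 37.4% of all genes tested.

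IARS1 measured 574, 644 and 539.8 CPM with vehicle and 455, 379 and 364 CPM with DOX in LNCaP-AI cells (log2 fold change -0.55 ± 0.12, edgeR adjusted p = 0.0362). MARS1 measured 258, 219 and 214 CPM with vehicle and 167, 171 and 164 CPM with DOX (log2 fold change -0.46 ± 0.09, edgeR adjusted p = 0.0314). These are the 2 genes that were called higher in DU-145 cells and lower in LNCaP-AI cells. With 1 sample left out, the LNCaP-AI call held for MARS1 in 4 of 6 fits and for IARS1 in 1 of 6 (adjusted p up to 0.161). Within the sides the values were -0.63 and -0.38 for IARS1 and -0.62 and -0.37 for MARS1, so the direction held on both. HARS2 rose from 52.2, 52.2 and 51.6 CPM to 67.6, 69.2 and 61 CPM (log2 fold change 0.34 ± 0.08, edgeR adjusted p = 0.0461), with 0.32 and 0.38 within the sides. Its call was lost in each of the 6 fits with 1 sample left out (adjusted p from 0.0526 to 0.184). HARS1 and HARS2 are divergent neighbours on chromosome 5, with annotated starts 107 bases apart and 108 bases of shared exon on opposite strands. HARS2 also shares 152 exonic bases on the same strand with ZMAT2, which had 24328 counts over the 12 samples. HARS1 had 87.9 to 91.3 CPM with vehicle and 99.5 to 111 CPM with DOX, a log2 fold change of 0.22 that did not pass (adjusted p = 0.118, edgeR). Leaving out DOX 2 or DOX 3 of LNCaP-AI cells left 0 members called by edgeR, with 6 at an unadjusted p under 0.05 in each case, leaving out DOX 1 gave 8, and leaving out any of the vehicle samples gave 2.

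Of the cytosolic genes that rose in DU-145 cells, several had LNCaP-AI groups that parted downward without passing the test. CARS1 measured 58.4, 42.2 and 44.2 CPM with vehicle and 38, 38.5 and 36.9 CPM with DOX (adjusted p = 0.145, edgeR). YARS1 measured 259, 217 and 223 CPM and then 189, 181 and 176 CPM (adjusted p = 0.0553). GARS1 measured 369, 331 and 293 CPM and then 263, 258 and 261 CPM (adjusted p = 0.0719). In each, the DOX samples were close together and the spread lay among the vehicle samples, with vehicle 1 the highest. AARS1 overlapped, with 509, 359 and 378 CPM with vehicle and 346, 388 and 369.7 CPM with DOX. Within the sides, the log2 fold changes were -0.63 and -0.19 for CARS1, -0.54 and -0.22 for YARS1, -0.51 and -0.25 for GARS1 and -0.43 and -0.09 for AARS1. Over the cytosolic set 13 of 20 genes were below 0 on both sides and 4 were above 0 on both, with medians of -0.34 on the side of vehicle 1 and -0.09 on the other, beside -0.05 and -0.01 over all genes.

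**Figure D3:**
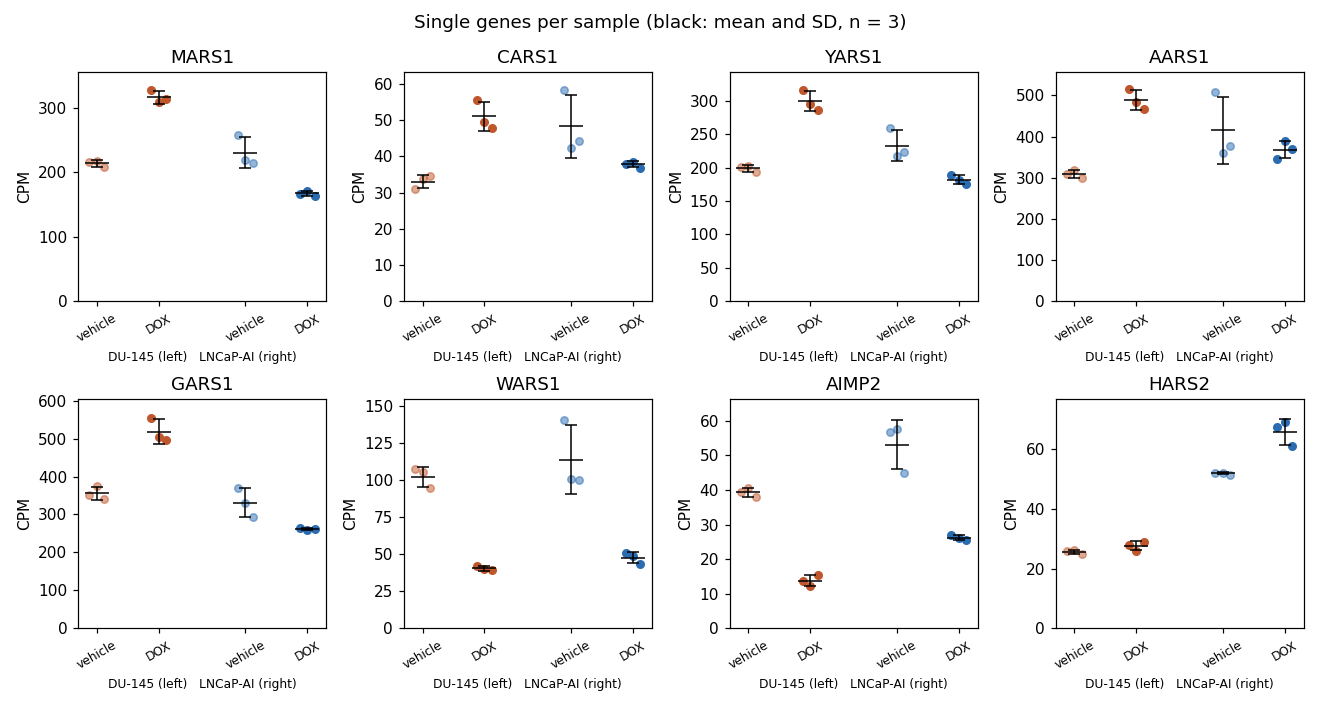
CPM per sample (y axis, from 0, normalized within each line) for 7 synthetase genes and the scaffold gene AIMP2, with vehicle (light) and DOX (dark) in DU-145 (left) and LNCaP-AI (right), and the mean and SD of 3 samples in black. MARS1 went from 208 to 218 CPM with vehicle to 309 to 328 CPM with DOX in DU-145 cells and from 214 to 258 CPM to 164 to 171 CPM in LNCaP-AI cells, while WARS1 and AIMP2 were lower with DOX in both.

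Whether the DOX effect differed between the lines was tested directly as an interaction over all 12 samples. It was called for 10 of 35 synthetases, and in every one the change was more negative in LNCaP-AI than in DU-145 cells, whereas 9.18% of 16800 genes were called in all, 3.76% in this direction and 5.43% in the other (edgeR). The 10 comprised 9 cytosolic genes and the mitochondrial leucyl enzyme LARS2. The median interaction was -0.39 over the cytosolic set, -0.02 over the mitochondrial set and -0.02 over all genes. The sign of the mitochondrial median changed under other scalings, to 0.03 with upper-quartile normalization.

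MARS1 had the largest difference, with a log2 change of -0.99 ± 0.10 (LNCaP-AI minus DU-145, adjusted p = 0.000645 by edgeR). CARS1 followed with -0.95 ± 0.16 (edgeR adjusted p = 0.0058), YARS1 with -0.91 ± 0.11 (edgeR adjusted p = 0.00108) and GARS1 with -0.85 ± 0.12 (edgeR adjusted p = 0.00241). These genes rose in DU-145 cells and had lower DOX than vehicle samples in LNCaP-AI cells, as given above. AARS1 differed by -0.80, EPRS1 by -0.70, IARS1 by -0.69, LARS2 by -0.51, SARS1 by -0.43 and LARS1 by -0.41. MARS1, CARS1, YARS1, GARS1, AARS1, EPRS1 and IARS1 passed in all 12 fits with 1 sample left out, SARS1 passed in 6, LARS2 in 5 and LARS1 in 3. Of the 19 synthetases called higher in DU-145 cells, 12 had a log2 fold change below 0 in LNCaP-AI cells.

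The functional divisions of the cytosolic set were described by their counts, beside 26.3% of all genes higher and 25.3% lower in DU-145 cells. In DU-145 cells 6 of the 7 synthetases of the multisynthetase complex were higher (all but RARS1) and 8 of the 13 outside it were higher with 1 lower, with medians of 0.28 and 0.22. By the fold of the catalytic domain, 7 of 10 class I enzymes were higher with 1 lower, and 7 of 10 class II enzymes were higher. The holders of TGATGNAA printed above, with IARS1 and NARS1, had 6 of 7 higher in DU-145 cells and a median of 0.54, while the 9 cytosolic genes with a window and no match had 6 higher and 1 lower and a median of 0.27. For the interaction 5 of the 7 holders were called, with a median of -0.80, and 2 of the 9 without a match, with a median of -0.15. All of these calls were more negative in LNCaP-AI cells, a direction in which 3.76% of all genes were called. YARS1 and LARS1, also called in the interaction, are among 4 cytosolic genes with no window.

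The scaffold of the multisynthetase complex went the other way from its enzymes in DU-145 cells. AIMP2 fell from 39.5, 40.5 and 38 CPM to 13.7, 12.2 and 15.5 CPM (log2 fold change -1.51 ± 0.10, edgeR adjusted p = 3.23e-10). It shares 532 exonic bases with EIF2AK1 on the opposite strand, and reads in this stretch cannot be assigned. Over the 12 samples EIF2AK1 had 61789 counts and AIMP2 had 6817. AIMP1 fell from 84.1 to 88.9 CPM to 62.1 to 63.2 CPM (log2 fold change -0.47 ± 0.07), and EEF1E1 from 28.4 to 36.3 CPM to 25.2 to 27.5 CPM (-0.26 ± 0.10, edgeR adjusted p = 0.0289). All 3 scaffold genes thus fell while 6 of 7 enzymes of the complex rose, beside 25.3% of all genes lower and 26.3% higher. In LNCaP-AI cells AIMP2 fell from 56.7, 57.6 and 44.9 CPM to 27, 26.2 and 25.4 CPM (log2 fold change -1.02 ± 0.12, edgeR adjusted p = 0.0123), with -1.13 and -0.93 within the sides. AIMP1 (-0.33) and EEF1E1 (-0.04) did not pass there, where 5.52% of all genes were called lower. By DESeq2, 2 of the 3 passed in each line. The interaction was called for 0 of the 3 by edgeR (1 at an unadjusted p under 0.05), beside 9.18% of all genes, and for 1 by DESeq2.

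**Figure D4:**
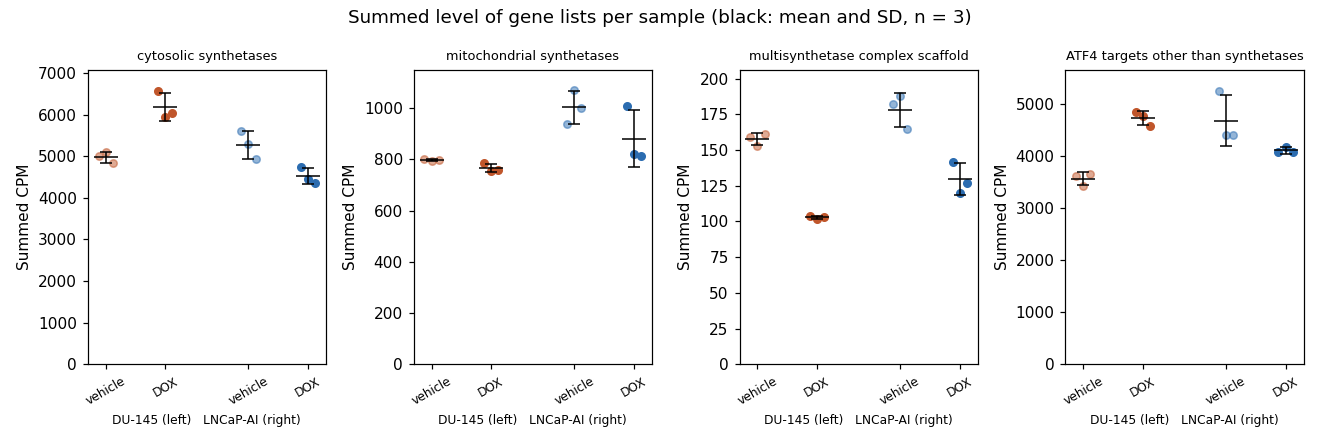
Summed CPM per sample (y axis, from 0) of the cytosolic synthetases, the mitochondrial synthetases, the scaffold genes and the ATF4 targets that are no synthetases, for vehicle and DOX in DU-145 (left) and LNCaP-AI (right), with the mean and SD of 3 samples in black. The cytosolic sum was 4838 to 5102 CPM with vehicle and 5935 to 6569 CPM with DOX in DU-145 cells, and 4940.3 to 5601 CPM and 4366 to 4735 CPM in LNCaP-AI cells.

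As transcript mass, the cytosolic synthetases took 4978 ± 133 CPM with vehicle and 6182 ± 339 CPM with DOX in DU-145 cells (SD, n = 3 each), 1.24 times as much. In LNCaP-AI cells the sums were 5276 ± 330.4 CPM and 4518 ± 193 CPM (SD, n = 3 each), a ratio of 0.856. In neither line did the sums of the groups overlap. The mitochondrial sum went from 798 ± 3.64 to 767 ± 16.7 CPM in DU-145 cells (SD, n = 3 each), and in LNCaP-AI cells the groups overlapped, with 937, 1069 and 1002 CPM and then 1010.1, 819.6 and 813 CPM.

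The other genes of the ATF4 pathway were described from lists of known members, which were chosen with earlier results of these data known. In DU-145 cells 21 of 31 ATF4 targets that are no synthetases were higher (67.7%) and 5 lower (16.1%), with a median log2 fold change of 0.58, beside 26.3% and 25.3% of all genes tested. ATF3, a transcription factor of the stress response, rose from 4.9, 4.29 and 5.82 CPM to 21.2, 18.2 and 23.3 CPM (log2 fold change 2.05 ± 0.14). CHAC1, which degrades glutathione, rose by 1.99 and SESN2, a leucine sensor that restrains mTORC1, by 1.82. ASNS, asparagine synthetase, went from 145 ± 7.55 to 209 ± 8.62 CPM (SD, n = 3 each, log2 fold change 0.53). In LNCaP-AI cells 2 of 32 targets were higher (6.25%) and 5 lower (15.6%), with a median of -0.19, beside 7.22% and 5.52% of all genes tested. The higher ones were SESN2 (1.25) and ATF3 (1.19), and the lower ones included JDP2 (-1.21), a repressor of the AP-1 family, and ALDH1L2 (-0.91), a mitochondrial folate enzyme. The interaction was called for 16 of 32 targets, with 15 more negative in LNCaP-AI cells (46.9%, beside 3.76% of all genes) and ALDH18A1, an enzyme of proline synthesis, more positive. SESN2 and ATF3 thus rose in both lines, whereas CHAC1, at 6.81 to 10 CPM with vehicle and 4.24 to 5.16 CPM with DOX, did not pass in LNCaP-AI cells.

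ATF4 itself measured 248, 265 and 258 CPM with vehicle and 308, 315 and 313 CPM with DOX in DU-145 cells (log2 fold change 0.28 ± 0.07, edgeR adjusted p = 0.00139). In LNCaP-AI cells it measured 365, 279 and 287 CPM and then 246, 246 and 249.7 CPM, which did not pass. The interaction was called, at -0.57 ± 0.12 (edgeR adjusted p = 0.0178). Because ATF4 is controlled largely in translation, its mRNA level is not a measure of its protein. Of 9 genes of the pathway that lead to or oppose ATF4 translation, ATF4 included, DU-145 cells had 6 higher (66.7%, beside 26.3% of all genes) and 1 lower. In LNCaP-AI cells 0 passed by edgeR (2 at an unadjusted p under 0.05) and 1 by DESeq2. PPP1R15A, which directs dephosphorylation of eIF2alpha, rose from 42.9, 32.8 and 39.6 CPM to 101, 107 and 93.8 CPM in DU-145 cells (log2 fold change 1.38 ± 0.09). EIF2AK4, the sensor of uncharged tRNA, rose by 0.36, and EIF2AK2, the kinase PKR that responds to double-stranded RNA, fell by 0.37.

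The lines were also compared with each other in their vehicle samples, where most mitochondrial synthetases had more transcript in LNCaP-AI cells. Of 35 synthetases, 14 were higher and 9 lower in LNCaP-AI than in DU-145 vehicle samples, against 66.3% of 16800 genes called, 37.6% higher and 28.7% lower (edgeR). Among the cytosolic genes 5 were higher and 7 lower with a median log2 difference of -0.06. Among the mitochondrial genes 9 were higher and 2 lower with a median of 0.34, beside 0.14 over all genes. With a single culture line each, a difference between lines cannot be told apart from other differences between these cultures.

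The levels below are CPM per kilobase of the MANE Select transcript, normalized over all 12 samples, so that genes can be compared. PARS2 was at 1.70, 1.63 and 1.68 in DU-145 vehicle samples and 7.03, 8.04 and 8.2 in LNCaP-AI vehicle samples (log2 difference 2.21 ± 0.15, edgeR adjusted p = 4.9e-07). MARS2 was at 3.74, 4.21 and 4.27 and then 13.7, 12.6 and 11.8 (log2 difference 1.64). LARS2 was at 7.90, 6.63 and 7.76 and then 17.6, 16.6 and 15.4 (1.16). PARS2 was the lowest of all synthetases in DU-145 cells, and all 3 genes parted the lines without overlap. CARS2, the mitochondrial cysteinyl enzyme, was at 17.6 to 18.7 in DU-145 and at 30.3, 42.4 and 42.8 in LNCaP-AI cells (1.09).

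In the other direction RARS2 was at 19.5 to 20.7 in DU-145 vehicle samples and at 6.35, 11.9 and 11.3 in LNCaP-AI vehicle samples (log2 difference -1.03 ± 0.23, edgeR adjusted p = 0.00198). TARS1 was at 310.0, 301 and 298 and then 198, 173 and 154 (-0.79), and TARS3 at 7.19 to 7.54 and then 5.88, 3.75 and 3.65 (-0.73). KARS1 was at 189 to 222 and then 141 to 163 (-0.42). For RARS2 and TARS3 vehicle 1 of LNCaP-AI cells stood apart from vehicle 2 and 3. Per kilobase the cytosolic synthetases had a median of 83.8 in DU-145 and 83.4 in LNCaP-AI vehicle samples, and the mitochondrial ones 10.5 and 14. TARS1 was the most abundant synthetase in both lines and IARS2 the most abundant mitochondrial one. Of the 5 genes with the largest interactions, CARS1 was higher (0.36) and GARS1 lower (-0.29) in LNCaP-AI vehicle samples, and MARS1 (-0.08), YARS1 (0.04) and AARS1 (0.24) did not pass (edgeR).

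**Figure D5:**
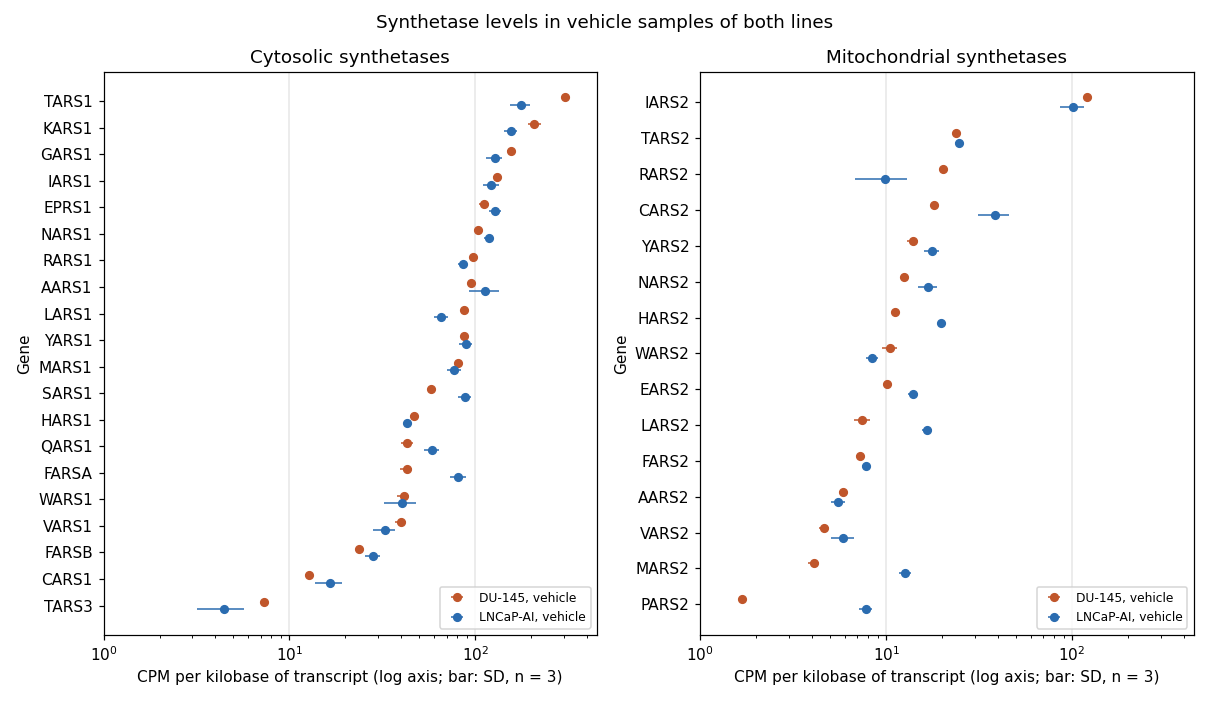
Mean CPM per kilobase of transcript (x axis, log scale, bar: SD, n = 3) of each synthetase gene (y axis) in vehicle samples of DU-145 and LNCaP-AI cells, ordered by the DU-145 level. PARS2 and MARS2 lie furthest apart, at 1.67 and 7.76 and at 4.07 and 12.7 CPM per kilobase in DU-145 and LNCaP-AI cells.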

How the data were processed

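Total RNA from 12 cultures was made into TruSeq stranded mRNA libraries. Per the submitters' processing notes, CASAVA 1.8.2, STAR 2.7.0, GRCh38.p7 and DESeq2 1.24.0 were used, and the authors deposited raw counts per gene. The counting tool and its strand setting are not given in the sources used here. Of 58037 identifiers 56948 had a symbol.

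A gene entered a fit when 3 or more of its samples had 10 counts or more, and was tested with edgeR 4.0.16 (R 4.3.3, TMM, glmQLFit, glmQLFTest, Benjamini-Hochberg adjustment over all genes tested, calls at 0.05). The fits were the 6 samples of each line, and all 12 samples for the interaction and for the lines. Standard errors (after ±, unless called SD) were computed as the log2 fold change over the square root of F. The steps were tested on simulated counts. Samples are separate cultures per the labels, and no pair of replicates agreed within counting noise (lowest chi-square per degree of freedom 2.53). A floor of 3 counts, which covers counting error only, was set but entered no filter, test or call.

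Named with every sample were the 6 largest called changes in each line, the 4 largest interactions and the 4 largest line differences in each direction, and up to 3 from each other list. Members and lists were chosen with earlier results of these data known.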

Additional observations from a re-analysis of the deposited data

Results flagged for a closer look

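The DOX effect differed between the lines, by a test of the difference itself (edgeR's interaction term over all 12 samples), for 10 synthetases. The log2 difference, LNCaP-AI minus DU-145, was -0.99 for MARS1, -0.95 for CARS1, -0.91 for YARS1, -0.85 for GARS1 and -0.80 for AARS1. It was -0.70 for EPRS1, -0.69 for IARS1, -0.51 for LARS2, -0.43 for SARS1 and -0.41 for LARS1. Within the sides of the LNCaP-AI division, the LNCaP-AI changes of 9 of these genes were below 0 on both, and that of SARS1 was -0.20 on the side of vehicle 1 and 0.06 on the other.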

How the results depend on the processing

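In LNCaP-AI cells the number of synthetases called, 4, was 11 with DESeq2 1.42.0 and also 11 in the fit of all 12 samples, and both included the 4. With the division of the LNCaP-AI samples as a covariate it was 19, given only as a comparison because the sides come from the same counts. Leaving out 1 sample at a time gave 0 to 8. Leaving out a vehicle sample gave 2 in each case. All genes called, 2043, became 3517, 3933 and 6271 under the first 3 alternatives. The cause was not tested.

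Replicate numbers did not pair the samples: deviations of same-numbered samples correlated at 0.139, -0.0999 and 0.0833 in DU-145 and at -0.943, -0.823 and -0.851 in LNCaP-AI cells. With the replicate number as a block, 24 synthetases were called in DU-145 and 0 in LNCaP-AI cells (edgeR, 8 at an unadjusted p under 0.05; 0 of all genes called), and 2 for the interaction (52 of all genes). Not every sample correlated best with its own number in either line.

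The DU-145 count of 24 ranged from 17 (fit of all 12 samples, with 4083 genes called in all) to 24, the interaction count of 10 otherwise from 7 to 14, and the count between the lines of 23 from 19 to 24. Leaving out 1 sample gave 20 to 23, 7 to 13 and 18 to 25. All genes called for the interaction, 1543, became 884 without a filter and 4109 with the side as covariate. No log2 fold change of a synthetase described in full changed sign under any alternative run. HARS2 in LNCaP-AI cells did not pass without a filter (adjusted p = 0.143), with the block (0.251) or in any of the 6 fits with 1 sample left out.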

Other observations

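In DU-145 cells, where 51.5% of all genes tested were called, the enzymes and factors that act beside the synthetases gave no larger share in any of 3 lists. Of 11 tested accessory and tRNA-linked enzymes 4 were higher by edgeR (36.4%, beside 26.3% of all genes) and the others did not pass. The 4 were GATB (0.75) and GATC (0.22), subunits of the amidotransferase that makes mitochondrial glutaminyl-tRNA, PTRH2 (0.56), a peptidyl-tRNA hydrolase, and SEPHS2 (0.44), which makes selenophosphate for selenocysteine. In LNCaP-AI cells 0 of the 11 passed by edgeR (2 at an unadjusted p under 0.05) and 1 by DESeq2. The cytosolic elongation and release factors had 1 higher (ETF1, 0.23) and 1 lower (EEF1A2, -0.67) of 8 tested in DU-145 cells. EEF1A2 also differed between the lines in its DOX effect, at 1.2 (edgeR adjusted p = 0.0141).

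Of 12 mitochondrial translation factors 1 was higher and 4 were lower in DU-145 cells (8.33% and 33.3%, beside 26.3% and 25.3% of all genes). The elongation factor GFM1 rose by 0.66, and the initiation factor MTIF3 fell by 0.88, the ribosome recycling factor GFM2 by 0.36, the GTPase GUF1 by 0.34 and the ribosome rescue factor MTRFR by 0.30. The DOX effect on GFM1 was more negative (-0.54) and that on MTIF3 more positive (0.85) in LNCaP-AI cells by the interaction test. In LNCaP-AI cells 0 of the 12 passed by edgeR (2 at an unadjusted p under 0.05) and 2 by DESeq2, and 11 of 12 estimates were below 0.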
